A study of Mus musculus with 9 samples.

Results

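Long intergenic noncoding RNAs (lincRNAs) expressed in mouse mammary gland cells were compared between cells with and without the long noncoding RNA EPR. The group comprised 139 gene symbols whose transcripts were all annotated as lincRNA and whose estimated counts, per 1000000 counts of the library (CPM), averaged at least 5 in at least 1 cell population. These were 139 of 52459 gene symbols in the files, and of 5059 symbols with lincRNA transcripts only. Of the 5051 of these that were not left out by name, 2399 had no count in any library and 4912 stayed below the threshold. A set of 14 much-studied long noncoding RNAs, such as Malat1, Neat1, Gas5 and H19, had been left out by name, and Norad, one of them, is a member because the files carry it as 2900097C17Rik. The members were therefore chosen by their level, and that level is a description here. The lowest members were AC141438.1, Gm26582 and AC163040.2, with a highest population mean of 5.08, 5.09 and 5.16 CPM, and the highest symbols below the threshold were CT033774.1, Gm26546 and 4933411E06Rik, with 4.92, 4.89 and 4.87 CPM.

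The cells were NMuMG, an immortalized epithelial line from normal mouse mammary gland. They were stably transfected with pBICEP-based vectors and kept as pools of G418-resistant cells, so that vector and selection were common to all 3 populations. The mock cells carried the empty vector, the EPR cells carried the transcript of BC030870, which the study renamed EPR, and the EPRSTOPE cells carried a mutant of it with a stop codon in place of the second codon of its reading frame, so that its small peptide is not made. Total RNA was sequenced in 3 libraries each, which the labels number 203 to 205 (mock), 206 to 208 (EPR) and 209 to 211 (EPRSTOPE), and it was not stated whether the 3 came from separate transfections, so p-values measure the spread between these libraries only.

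LincRNAs are RNA polymerase II transcripts that are usually spliced, capped and polyadenylated. They lie outside protein-coding genes and carry no long conserved reading frame. Some act in known ways. Xist coats the inactive X chromosome in female cells, Norad binds Pumilio proteins in the cytoplasm, Cyrano directs the decay of the microRNA miR-7, and some lincRNAs serve mainly as hosts from which microRNAs or small nucleolar RNAs are cut. For most symbols beginning with Gm or AC, or ending with Rik, no role is known. Many lincRNA models contain stretches of repeats or pseudogenes, and reads from such stretches cannot be assigned to a single gene.

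How far the reads could be assigned was therefore examined first. The sequences of 136 members were cut into all words of 31 bases, the word length Kallisto uses by default, and 125 of them shared at least 1 word with a transcript of another gene. The median share was 11.9% of a member's words. In 65 members it was at most 10%, in 36 between 10% and 50%, and in 35 over 50%. With 10% of words as the limit, 36 members fell into 9 families in which members shared sequence with each other. The levels of several families are therefore given as a sum below, though not those of every family. The following stretches, read from Gencode transcripts, show such sharing. The longest identical stretch of Gm26809 and Gm29408 was 83 nt long (bases 2534 to 2616 of the Gm26809 transcript), that of Gm26809 and the reverse complement of Gm12840 was 134 nt (bases 1897 to 2030), and that of Slmapos2 and AC164573.1, on different chromosomes, was 45 nt (bases 1380 to 1424 of Slmapos2).
Gm26809 and Gm29408: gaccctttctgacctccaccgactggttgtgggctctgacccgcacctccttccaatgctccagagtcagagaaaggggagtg
Gm26809 and Gm12840, reverse complement: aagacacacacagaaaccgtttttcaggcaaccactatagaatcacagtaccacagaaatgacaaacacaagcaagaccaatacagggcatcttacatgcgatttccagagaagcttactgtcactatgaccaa
Slmapos2 and AC164573.1: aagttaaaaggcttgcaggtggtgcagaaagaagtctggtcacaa

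Promoters of members were taken from RefSeq (build GRCm38.p6), from 250 bases before to 50 bases after the start, and 49 members could be matched. Printed here are those of 3 lincRNAs that were higher in the cells with EPR and of 2 that were lower, all of them with little or no shared sequence and with a RefSeq start within 235 bp of the Gencode start. Capitals mark matches on either strand to GGAATG (the element of TEAD factors), TGANTCA (AP-1), CAGGTG (an E-box bound by Zeb and Snail factors) and TATAAA (the TATA box), and no marked match overlaps another.
4930461G14Rik, chr9:58454923-58455222, plus strand: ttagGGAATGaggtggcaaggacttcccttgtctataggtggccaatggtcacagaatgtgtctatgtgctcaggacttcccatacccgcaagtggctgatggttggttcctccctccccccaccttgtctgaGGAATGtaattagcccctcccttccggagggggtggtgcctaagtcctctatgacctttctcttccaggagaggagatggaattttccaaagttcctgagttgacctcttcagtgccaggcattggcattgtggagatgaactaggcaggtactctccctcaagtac
Gm3716, chr5:64610650-64610949, minus strand: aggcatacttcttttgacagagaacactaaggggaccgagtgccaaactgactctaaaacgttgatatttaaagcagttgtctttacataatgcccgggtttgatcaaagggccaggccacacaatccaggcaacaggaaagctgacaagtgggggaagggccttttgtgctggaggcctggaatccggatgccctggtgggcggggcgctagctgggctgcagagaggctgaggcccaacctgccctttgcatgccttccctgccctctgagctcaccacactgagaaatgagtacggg
Gm13387, chr2:25145438-25145737, minus strand: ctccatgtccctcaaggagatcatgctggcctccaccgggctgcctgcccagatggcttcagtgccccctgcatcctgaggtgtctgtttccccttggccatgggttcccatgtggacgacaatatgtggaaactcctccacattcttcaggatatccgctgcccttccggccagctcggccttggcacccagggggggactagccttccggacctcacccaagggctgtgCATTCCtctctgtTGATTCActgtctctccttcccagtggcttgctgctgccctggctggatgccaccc
AU020206, chr7:75782071-75782370, minus strand: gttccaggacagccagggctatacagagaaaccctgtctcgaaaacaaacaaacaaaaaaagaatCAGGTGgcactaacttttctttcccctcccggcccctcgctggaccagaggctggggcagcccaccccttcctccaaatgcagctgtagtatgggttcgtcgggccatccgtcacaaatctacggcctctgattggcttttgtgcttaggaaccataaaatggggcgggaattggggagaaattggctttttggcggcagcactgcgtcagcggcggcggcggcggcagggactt
Gm17501, chr3:145649827-145650126, plus strand: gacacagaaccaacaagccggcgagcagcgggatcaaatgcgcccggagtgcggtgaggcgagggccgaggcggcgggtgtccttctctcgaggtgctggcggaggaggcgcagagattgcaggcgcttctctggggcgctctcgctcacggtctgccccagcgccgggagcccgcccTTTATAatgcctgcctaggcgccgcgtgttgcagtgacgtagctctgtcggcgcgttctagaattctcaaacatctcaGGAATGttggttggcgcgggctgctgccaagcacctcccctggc
The promoter of 4930461G14Rik held 2 matches to GGAATG, that of Gm13387 held 1 match each to GGAATG and TGANTCA, that of Gm17501 held 1 each to GGAATG and TATAAA, that of AU020206 held 1 to CAGGTG, and that of Gm3716 held none of these words. Over 32851 RefSeq promoters of the same length, 14.7% held GGAATG, 7.81% TGANTCA, 20.2% CAGGTG and 13.6% TATAAA. Of the 49 matched member promoters, 14 held GGAATG, 6 TGANTCA, 10 CAGGTG and 7 TATAAA. The limit of 235 bp was not applied to these 49. The RefSeq start lay 73414 bp from the Gencode start in Gm14005, whose sequence held TGANTCA, and 9856 bp in Mir155hg. It lay 7054 bp away in Gm29371 and 5242 bp away in AW112010, both called higher in EPR. Not all 49 are therefore promoters at the annotated start of the member. Among the 9 matched members called higher in EPR than in mock cells the numbers were 3, 3, 2 and 1, and among the 9 called lower they were 1, 0, 2 and 2. These are matches of letters and no measure of binding.

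Values below are CPM normalized by edgeR's TMM method, in the order of the libraries, and comparisons are edgeR quasi-likelihood tests adjusted over all 15370 genes tested. A gene was called where the adjusted p was below 0.01 and the log2 fold change exceeded 0.5 in size. The libraries held 5972457 to 11876435 estimated counts, so that 3 counts corresponded to 0.253 to 0.502 CPM. The members took 2.76 to 2.97% of all counts in mock, 1.86 to 2.41% in EPR and 1.92 to 2.14% in EPRSTOPE libraries. Most of this was a single model, Gm26917, and without Gm26917 and Gm42418, which lie at ribosomal RNA-like sequence, the members took 0.578 to 0.619%, 0.653 to 0.685% and 0.654 to 0.710%. Of the epithelial markers, the E-cadherin gene Cdh1 was at 0.311 to 1.16 CPM in mock, 542 to 569 in EPR and 381 to 427 in EPRSTOPE libraries, and Epcam was at 0 in every mock library, 2.40 to 4.30 in EPR and 0 to 0.214 in EPRSTOPE libraries. Cldn3, Cldn4, Cldn7 and Esrp1 were at 0.505 CPM or less in every library of all 3 populations, while Krt8 was at 1989 to 2232 CPM in mock libraries. BC030870 itself was at 0 to 0.163 CPM in mock, 23.7 to 27.02 in EPR and 3.80 to 4.74 in EPRSTOPE libraries.

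The libraries also differed in fragment length. The mean fragment length that Kallisto used, read as transcript length minus effective length in transcripts over 3000 nt, was 473, 411 and 431 nt in the mock libraries, 282, 180 and 248 nt in the EPR libraries, and 115, 295 and 386 nt in the EPRSTOPE libraries. No EPR or EPRSTOPE library reached the mock range. Each comparison with mock was therefore also made on counts scaled from TPM, which correct for effective length. On that scale the fold changes of the members against mock were higher by a median of 0.17 (EPR) and 0.18 (EPRSTOPE) on the log2 scale, against 0.04 and 0.07 for all genes, and the shift followed transcript length. The median standard error over all genes was larger on the scaled counts, 0.24 against 0.14 to 0.15. Calls that were not made on the scaled counts are named as such below.

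**Figure D1:**
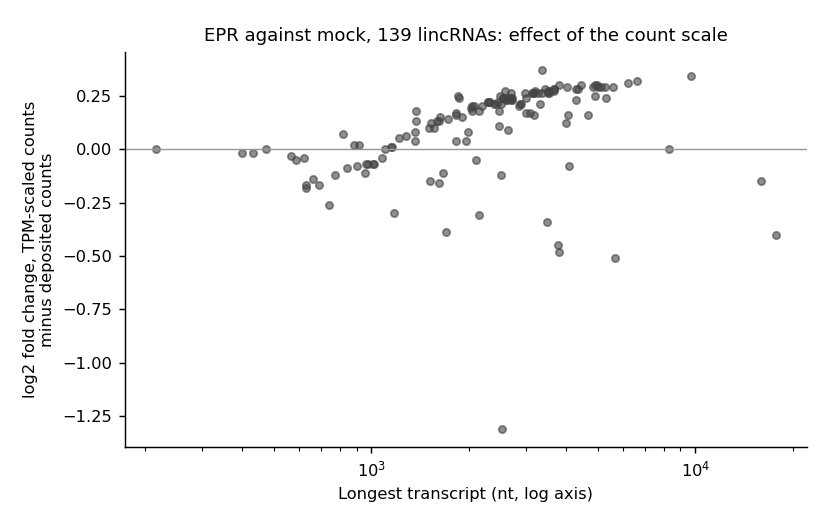
Difference between the log2 fold change (EPR against mock) obtained from TPM-scaled counts and that from deposited counts, for each of the 139 lincRNAs (points), against its longest transcript (nt, log axis). For most members the shift rises with length, from around 0 or below under 1000 nt to above 0.2 beyond 3000 nt, while some members lie below the others of their length.

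In EPR against mock cells, 20 of 139 lincRNAs were called higher and 27 lower, beside 15.2% and 12.9% of all genes tested. In EPRSTOPE against mock cells, 15 were higher and 36 lower, beside 15.6% and 12.4%. Between EPR and EPRSTOPE cells, 15 were higher in EPR and 4 lower, beside 6.86% and 6.35%. Because a member could enter through a high mean in only 1 population, these shares are not support for a difference between lincRNAs and other genes. The 94 members at 5 CPM or more in all 3 populations had 13 higher and 15 lower, 8 higher and 21 lower, and 7 higher and 1 lower in the 3 comparisons. A further 19 members reached 5 CPM in mock cells alone, 5 in EPR alone and 2 in EPRSTOPE alone. On the TPM-scaled counts the calls were 18 higher and 12 lower in EPR against mock, 15 and 14 in EPRSTOPE against mock, and 5 and 2 between EPR and EPRSTOPE. Beside these, 11.4% and 8.15%, 12.1% and 7.72%, and 2.99% and 2.87% of all 15464 genes tested on that scale were called. Of the lower calls, 11 of 27 and 13 of 36 were made on both scales, and of the higher calls 17 of 20 and 12 of 15. Among the 86 members over 2000 nt, 23 were lower in EPRSTOPE than in mock on the deposited counts and 7 on the scaled counts. Over all genes of any length, lower calls also went from 12.4% to 7.72%, and the share among all genes over 2000 nt is not given here.

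**Figure D2:**
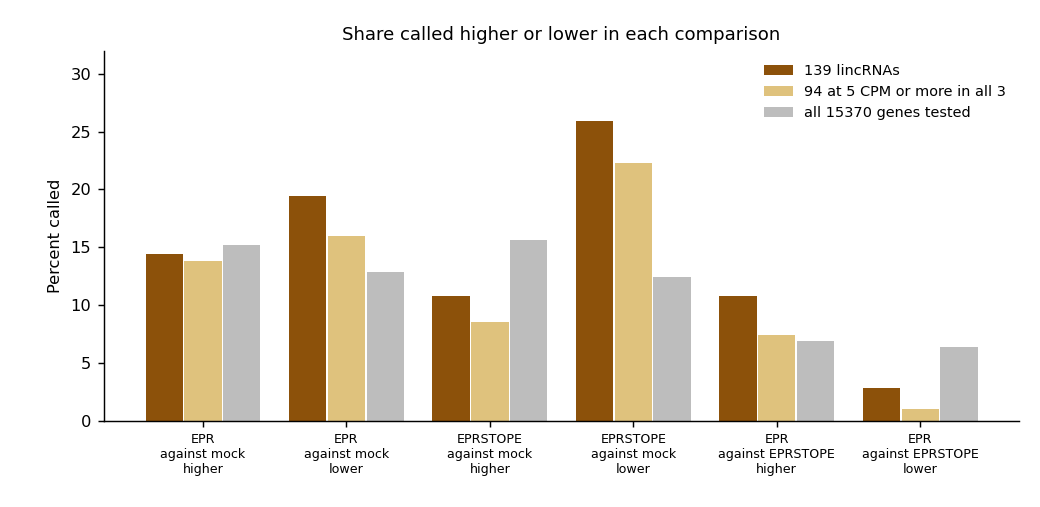
Percent of features called higher or lower in each comparison (bars start at 0), for all 139 lincRNAs, for the 94 at 5 CPM or more in all 3 populations, and for all 15370 genes tested, on the deposited counts. The bars for lower in EPRSTOPE against mock stand at 25.9%, 22.3% and 12.4%.

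The comparisons of EPR and of EPRSTOPE with mock share the mock libraries, so their fold changes are given side by side only. In 69 members no call was made in any of the 3 comparisons, and the same share over all genes is not given here. The direct comparison of EPR with EPRSTOPE called 19 of all 139 members, whether or not they were called against mock, beside 13.2% of all genes tested.

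The largest increase was that of 4930461G14Rik, a lincRNA on chromosome 9 with no word in common with another gene (58455122 to 58469635 of GRCm38, plus strand). It stood at 1.09, 0.528 and 0.326 CPM in mock, 20.2, 17.8 and 18.97 in EPR, and 13.6, 12.7 and 12.5 in EPRSTOPE libraries. The mock libraries lay near the value of 3 counts, and every EPR and EPRSTOPE library lay far above them. The log2 fold change was 5.01 (SE 0.25, adjusted p = 1.5e-08) in EPR and 4.45 (SE 0.26, adjusted p = 4.7e-08) in EPRSTOPE, and the EPR libraries exceeded the EPRSTOPE libraries without a call (log2 difference 0.56, adjusted p = 0.028). As in all results from whole cultures, fewer expressing cells and less RNA per cell cannot be told apart. Its nearest coding gene, 6030419C18Rik, 18968 bp away on the same strand, moved the other way (log2 fold change -1.22 and -1.14).

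Gm13387 (chromosome 2, minus strand, 25122603 to 25145396) was at 2.33, 4.22 and 3.58 CPM in mock, 22.95, 24.4 and 21.8 in EPR, and 10.5, 11.9 and 9.78 in EPRSTOPE libraries. The 3 populations did not overlap, in the order EPR, EPRSTOPE, mock. The log2 fold changes were 2.73 (SE 0.18, adjusted p = 1.3e-07) and 1.63 (SE 0.19, adjusted p = 1.6e-05), and the direct comparison gave 1.10 (SE 0.16, adjusted p = 0.00027), which was not called on the scaled counts. AW112010, a transcript known to be induced in immune cells and to carry a translated reading frame, followed the same order. It was at 1.86, 2.95 and 3.74 CPM in mock, 18.6, 17.9 and 18.8 in EPR, and 12.03, 9.82 and 6.33 in EPRSTOPE libraries. Its log2 fold changes were 2.63 (SE 0.25, adjusted p = 3.7e-06) and 1.64 (SE 0.26, adjusted p = 0.00027). Its direct difference of 0.99 (adjusted p = 0.0059) was not called on the scaled counts, nor when library 206, 207, 208, 210 or 211 was left out (0.76 to 1.04, adjusted p = 0.015 to 0.020). AW112010 lies on chromosome 19, whose 477 tested genes had a median of -0.55 on the log2 scale in EPRSTOPE against mock, and the part of this shift in its values was not tested.

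Gm3716 (chromosome 5, minus strand) was lower in level, with 0.466, 0.528 and 1.22 CPM in mock, 8.12, 8.46 and 4.86 in EPR, and 3.73, 4.27 and 1.61 in EPRSTOPE libraries. All cells with either EPR construct lay above mock. The log2 fold changes were 3.15 (SE 0.46, adjusted p = 0.00011) and 1.99 (SE 0.48, adjusted p = 0.0046). The call in EPRSTOPE was not made on the scaled counts, nor without library 203, 204, 209 or 210 (1.69 to 1.89, adjusted p = 0.014 to 0.024). Klf3, the nearest coding gene but 192688 bp away, was also higher in both (0.80 and 0.82). The values of Gm29371, which overlaps Alppl2 on the opposite strand of chromosome 1, were 5.44, 8.44 and 6.02 CPM in mock, 17.5, 15.5 and 16.7 in EPR, and 13.0, 14.5 and 12.4 in EPRSTOPE libraries. This lincRNA rose in both, by 1.31 (adjusted p = 3.5e-05) and 1.0 (adjusted p = 0.00038).

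Others rose in the EPR cells only by their calls. C130083M11Rik was at 2.80, 2.32 and 1.55 CPM in mock, 5.24, 7.20 and 6.17 in EPR, and 3.22, 3.84 and 4.37 in EPRSTOPE libraries. Its log2 fold change was 1.51 (SE 0.28, adjusted p = 0.00069) in EPR and 0.82 (adjusted p = 0.033) in EPRSTOPE, and the direct difference of 0.68 was not called (adjusted p = 0.072). Gm30414 was at 6.06, 5.59 and 4.72 CPM in mock, 10.0, 12.6 and 11.9 in EPR, and 6.44, 5.77 and 6.79 in EPRSTOPE libraries. EPR libraries lay above all others, with 1.08 against mock (adjusted p = 0.00023) and 0.86 against EPRSTOPE (adjusted p = 0.0025). The latter was not called on the scaled counts, nor without library 207, 208 or 210 (0.79 to 0.85, adjusted p = 0.010 to 0.014).

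The other calls against mock were of smaller size. Gm20707, which overlaps the zinc finger gene Zfp984 on the same strand, was higher in EPR (2.80, 3.38 and 3.26 CPM in mock, 7.33, 6.19 and 5.89 in EPR, and 5.59, 4.70 and 5.18 in EPRSTOPE libraries, log2 fold change 1.03, adjusted p = 0.0013), as was Zfp984 (0.69). Gm20707 shares 9.09% of its words with Zfp984, and reads from these cannot be told apart. AC091458.3 was lower in EPRSTOPE (7.30, 7.18 and 5.62 CPM in mock, 6.37, 5.05 and 3.83 in EPR, and 3.39, 2.78 and 2.19 in EPRSTOPE libraries, -1.27, adjusted p = 0.0019), but not on the scaled counts, while Dio3, a thyroid hormone-inactivating deiodinase gene 120991 bp away, was higher in both populations (1.86 and 1.01). Calls of 5930430L01Rik (0.72) and Gm26694 (-1.28) in EPR, of CT009718.1 (1.09), AC124577.3 (-0.95) and Gm45627 (-0.55) in EPRSTOPE, and of Gm45899 in both (-0.60 and -0.67) were not made on the scaled counts and each ended when some single library was left out, in Gm26694 without library 204 (-1.18, adjusted p = 0.011) and in the others without 2 to 5 libraries each. Lower calls of Gm7293 and Gm26762 in EPRSTOPE were not made on the scaled counts either (-0.41, adjusted p = 0.07, and -0.44, adjusted p = 0.23). That of Gm26762 was also lost without any of 8 libraries (-0.76 to -0.61), while that of Gm7293 was made in all 9 such fits.

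**Figure D3:**
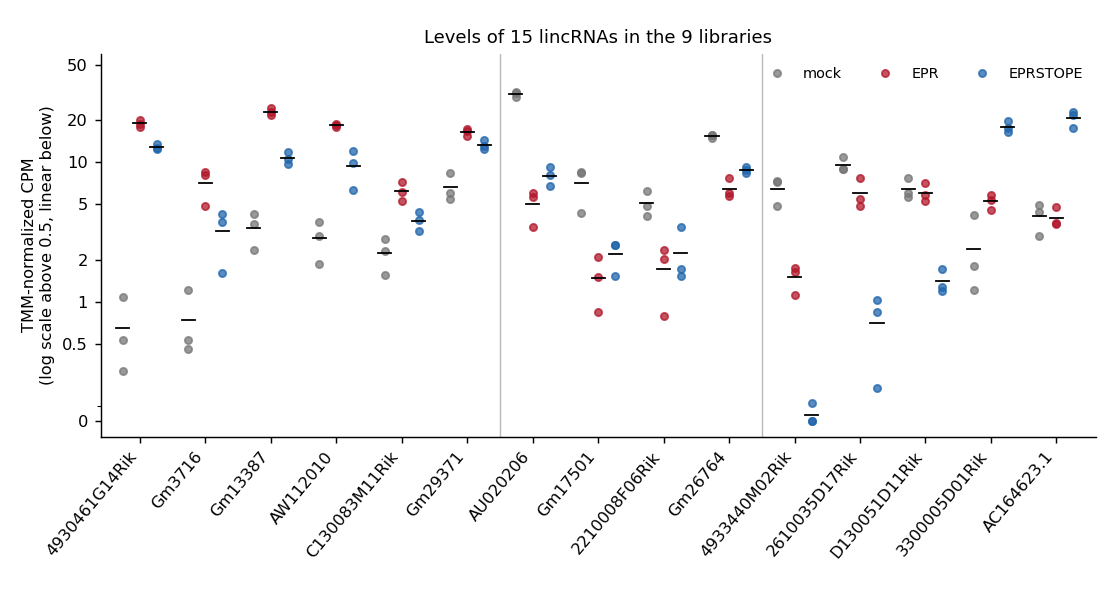
TMM-normalized CPM (log scale above 0.5, linear below) of 15 lincRNAs in the mock, EPR and EPRSTOPE libraries (points, 3 each; bars are means). The left block holds lincRNAs higher with EPR, such as 4930461G14Rik, the middle block lincRNAs lower with EPR, such as AU020206, and the right block lincRNAs that differed between EPR and EPRSTOPE, such as 4933440M02Rik and AC164623.1.

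Of the lincRNAs that fell, AU020206 (chromosome 7, minus strand, 75769038 to 75782099) shared almost no sequence with other genes. It was at 32.2, 29.4 and 31.5 CPM in mock, 6.02, 3.41 and 5.61 in EPR, and 6.78, 8.12 and 9.21 in EPRSTOPE libraries. Mock lay above all other libraries, and the EPR and EPRSTOPE ranges did not overlap. The log2 fold changes were -2.60 (SE 0.18, adjusted p = 2e-07) and -1.93 (SE 0.17, adjusted p = 1.9e-06), and the direct difference of -0.67 was not called (adjusted p = 0.022). Akap13, a protein kinase A anchoring protein and its convergent neighbour, rose in both (0.68 and 0.59).

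Gm17501 starts 331 bp from Cyr61 and is transcribed away from it. Cyr61 encodes a secreted matricellular protein and is a classical target of the YAP and TEAD transcription factors. Gm17501 was at 4.35, 8.55 and 8.38 CPM in mock, 2.10, 1.52 and 0.841 in EPR, and 1.53, 2.56 and 2.53 in EPRSTOPE libraries, with all mock libraries above the rest. Its log2 fold changes were -2.26 (SE 0.38, adjusted p = 0.00034) and -1.67 (SE 0.37, adjusted p = 0.0025). The latter was not called without library 204, 205 or 209 (-1.54 to -1.49, adjusted p = 0.010 to 0.013). Cyr61 was at 531, 544 and 521 CPM in mock, 247, 249 and 219 in EPR, and 385, 364 and 444 in EPRSTOPE libraries, so that it was lowest in EPR (-1.16, adjusted p = 1.5e-07, against -0.42 without a call in EPRSTOPE).

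The divergent pair of 2210008F06Rik and Ankrd13b, 176 bp apart on chromosome 11, was lower in EPR as well. The lincRNA was at 6.21, 4.85 and 4.15 CPM in mock and 0.786, 2.02 and 2.34 in EPR libraries (log2 fold change -1.56, SE 0.42, adjusted p = 0.0085), with 1.53, 1.71 and 3.45 in EPRSTOPE. This call was not made on the scaled counts, nor without library 203, 204, 205, 206 or 207 (-1.70 to -1.19, adjusted p = 0.014 to 0.031). Ankrd13b had a log2 fold change of -0.54 (adjusted p = 0.0016). Gm26764, which overlaps Sptlc2 on the opposite strand, was at 15.7, 14.9 and 15.6 CPM in mock, 7.68, 5.68 and 5.98 in EPR, and 9.32, 8.44 and 8.86 in EPRSTOPE libraries. It fell in both, by 1.25 (adjusted p = 2.3e-05) and 0.80 on the log2 scale (adjusted p = 0.00076), the latter not called on the scaled counts.

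Lower in both populations were also CT009718.4 (mean 65.9, 29.9 and 24.1 CPM in mock, EPR and EPRSTOPE, log2 fold change -1.14 and -1.45) and BC051077 (-0.85 and -0.66, the latter not called on the scaled counts). A decrease of Gm45184 was called in EPR only. Gm45184 was at 81.9, 104 and 66.3 CPM in mock and 6.46, 4.29 and 4.77 in EPR libraries (log2 fold change -4.00, adjusted p = 0.00061), but at 4.24, 85.1 and 23.5 in the EPRSTOPE libraries, which spanned the EPR and the mock range. Gm6410 (-1.08 and -1.64), Gm4425 (-1.30 and -1.15) and Gm1976 (-1.04 and -1.18) were called in both. On the scaled counts only Gm6410 in EPRSTOPE was called among these. The call of Gm4425 in EPRSTOPE was lost without library 203, 204 or 209 (-1.09 to -1.02), and that of Gm1976 without any of 6 libraries in EPR (-1.14 to -0.85) and of 4 in EPRSTOPE (-1.22 to -0.99). Gm13056 was called lower in EPR only (-1.20, adjusted p = 0.0017), and not without library 204 (-1.02, adjusted p = 0.010). Mettl4, a methyltransferase gene upstream of Gm1976, fell as well (-0.96 and -0.71).

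Gm42743 stood out among the decreases by its locus. Its model starts 31 bp from the start of the histone H2B gene Hist2h2bb on the same strand and it shares 15.4% of its words with Gm20628. It was at 39.5, 61.8 and 72.4 CPM in mock, 1.92, 3.54 and 4.58 in EPR, and 4.07, 3.74 and 6.21 in EPRSTOPE libraries, a log2 fold change of -4.13 (adjusted p = 3.1e-07) and -3.63 (adjusted p = 7.2e-07). Hist2h2bb itself was at 209, 314 and 334 CPM in mock, 70.0, 66.0 and 59.1 in EPR, and 41.7, 52.5 and 44.6 in EPRSTOPE libraries (-2.14 and -2.62). Both genes fell in both populations, and reads from where they overlap cannot be told apart.

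A small number of lincRNAs differed between EPR and EPRSTOPE cells. BC030870 itself was higher in EPR than in EPRSTOPE cells (log2 difference 2.56, adjusted p = 2e-06). The absence of the peptide and the lower level of the transcript therefore cannot be told apart in this comparison. 4933440M02Rik (chromosome 7, minus strand, 125284025 to 125349788) was at 7.30, 4.85 and 7.16 CPM in mock, 1.75, 1.64 and 1.12 in EPR, and 0, 0 and 0.115 in EPRSTOPE libraries. The 3 populations did not overlap, and EPRSTOPE held a single count against 45 in EPR and 181 in mock. The ratio of mock to EPRSTOPE was 167 (95% exact interval 29.5 to 6616) and that of EPR to EPRSTOPE 36.8 (6.28 to 1487), intervals that cover counting error only. The edgeR fit called it lower in EPR (-2.09, adjusted p = 0.0003, not called on the scaled counts) and in EPRSTOPE (adjusted p = 1.5e-06), and different between them (adjusted p = 0.00031).

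2610035D17Rik (chromosome 11) was at 9.01, 10.9 and 8.95 CPM in mock, 7.68, 5.43 and 4.86 in EPR, and 0.847, 0.214 and 1.04 in EPRSTOPE libraries. The EPRSTOPE libraries lay far below both others, with -3.81 against mock (SE 0.38, adjusted p = 5.1e-06) and 3.13 for EPR against EPRSTOPE (SE 0.39, adjusted p = 8.7e-05), while EPR did not pass the test against mock (-0.68, adjusted p = 0.065). Its neighbour Slc39a11, a zinc transporter gene 43015 bp away, was higher in EPRSTOPE than in mock (0.61). D130051D11Rik was at 6.06, 5.59 and 7.65 CPM in mock, 5.24, 5.81 and 7.10 in EPR, and 1.19, 1.28 and 1.73 in EPRSTOPE libraries. Mock and EPR overlapped and EPRSTOPE was below both, by -2.18 against mock (adjusted p = 2.8e-05) and 2.09 for EPR against EPRSTOPE (adjusted p = 0.00011). Gm4316 (chromosome 8) had the same form, with 19.9 to 25.3 CPM in mock, 19.03 to 19.6 in EPR and 4.83 to 9.504 in EPRSTOPE libraries (-1.56 against mock, 1.38 directly, adjusted p = 0.00024), but 37.5% of its words occur in other genes and neither call was made on the scaled counts.

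In the other direction, AC164623.1 (chromosome 10, minus strand) was at 2.95, 4.43 and 4.97 CPM in mock, 3.58, 3.66 and 4.77 in EPR, and 21.9, 17.5 and 23.1 in EPRSTOPE libraries. Mock and EPR overlapped and every EPRSTOPE library was above them, with 2.30 against mock (SE 0.21, adjusted p = 1.9e-06) and -2.37 for EPR against EPRSTOPE (SE 0.21, adjusted p = 4.8e-06). 3300005D01Rik (chromosome 17), which shares no word with another gene, was at 4.19, 1.79 and 1.22 CPM in mock, 5.85, 4.55 and 5.33 in EPR, and 16.4, 19.8 and 17.7 in EPRSTOPE libraries. It rose most in EPRSTOPE (3.02, adjusted p = 8.6e-06), with a direct difference of -1.77 (adjusted p = 0.00058) that was not called on the scaled counts. Its call in EPR (1.25, adjusted p = 0.009) was not made on the scaled counts, nor when any of 8 libraries was left out (0.87 to 1.34, adjusted p = 0.012 to 0.042). Gm16702, opposite to T2 on chromosome 17, was lower in EPR (6.90, 5.68 and 6.07 CPM) than in EPRSTOPE (12.5, 14.5 and 12.4), a difference of -1.08 (adjusted p = 0.00018), with 9.94, 11.1 and 11.5 in mock, below which EPR also lay (-0.80, adjusted p = 0.00074). The call against mock was not made on the scaled counts (-0.59, adjusted p = 0.053).

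The remaining direct calls were smaller or rested on shared sequence. Gm26762 (1.12) and Gm20045 (0.89) were higher in EPR than in EPRSTOPE and were not called on the scaled counts. Gm26819 shares 80.6% of its words with Med10, which lies on the opposite strand, and was higher in EPR (1.74) whereas Med10 was lower (-0.53). Gm26733 shares 98.6% of its words with Zfp26 and was lower in EPR (-1.08), beside -0.05 for Zfp26. The calls of Gm26819 and Gm26733 were not made on the scaled counts either (adjusted p = 0.027 and 0.037). Of these 4, only Gm26762 kept its direct call whichever library was left out. Gm20045 lost it for 8 libraries (0.77 to 0.98), Gm26733 for 8 (-1.13 to -0.86) and Gm26819 for 3 (1.41 to 1.62). Mirt1, first described in the infarcted heart, was at 88.1, 82.2 and 75.5 CPM in mock, 61.3, 58.3 and 60.8 in EPR, and 42.4, 36.2 and 47.9 in EPRSTOPE libraries, so that no 2 populations overlapped. It was called in EPRSTOPE against mock (-0.96, adjusted p = 5.2e-06) and directly (0.52, adjusted p = 0.0017). The direct call was not made on the scaled counts or without library 210 (0.41). Mirt1 lies on chromosome 19, where the median of all tested genes was -0.55 in EPRSTOPE against mock and 0.55 in EPR against EPRSTOPE.

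**Figure D4:**
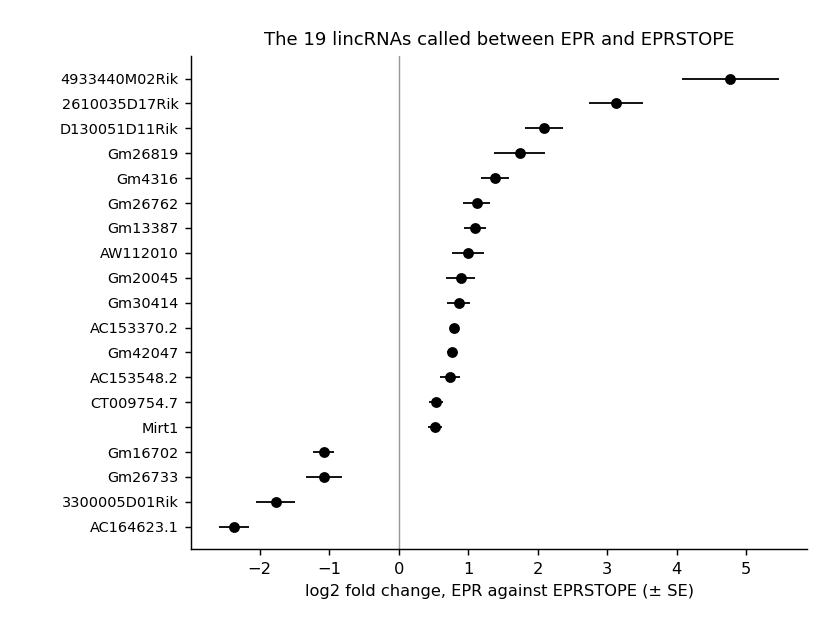
Log2 fold change between EPR and EPRSTOPE cells (points, with standard errors as bars) of the 19 lincRNAs called in that comparison. Positive values are higher in EPR: 15 members lie to the right of 0, led by 4933440M02Rik, and 4 to the left, ending with AC164623.1 at -2.37.

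Families of members with shared sequence moved as sums in different ways. The Gm26809 family (Gm26809, Gm12840, Gm20186 and Gm29408, on chromosomes 4, 6 and 9) summed to 461 to 482 CPM in mock, 1383 to 1435 in EPR and 1335 to 1417 in EPRSTOPE libraries. EPR and EPRSTOPE overlapped, and both lay far above mock. Nearly all of this was Gm26809, which lies 1219 bp upstream of Lsm8 on the same strand, with 449.9, 434 and 447 CPM in mock, 1317, 1346 and 1292 in EPR, and 1329, 1259 and 1282 in EPRSTOPE libraries. Its log2 fold changes were 1.57 (SE 0.04, adjusted p = 8.4e-11) and 1.54 (SE 0.04, adjusted p = 8.9e-11). The fold changes of Gm12840 (1.68 and 1.60) and of Gm29408 (1.70 and 1.58) were close to these, and those of Gm20186 were 0.28 and 0.60 with no call. Lsm8, a subunit of the U6 snRNA-binding ring, went the other way in EPR (-0.83, adjusted p = 9.5e-05).

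Slmapos2 on chromosome 14 and AC164573.1 on chromosome 10, which share the 45-nt stretch shown above, had similar fold changes. Slmapos2 was at 26.6, 27.8 and 25.6 CPM in mock, 75.0, 72.6 and 89.5 in EPR, and 78.6, 68.0 and 73.3 in EPRSTOPE libraries (1.57 and 1.46). AC164573.1 was at 9.32, 10.3 and 11.7 CPM in mock, 35.0, 29.2 and 35.3 in EPR, and 30.2, 33.9 and 30.95 in EPRSTOPE libraries (1.65 and 1.58). In both genes the libraries with either construct overlapped and lay above mock. The 490 tested genes of chromosome 14 had a median of 0.49 and 0.59, below the values of Slmapos2.

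The Gm42047 family (Gm42047, AC141438.1, AC153370.2 and AC153548.2) instead separated EPR from EPRSTOPE. Its sum was 522 to 535 CPM in mock, 1044 to 1185 in EPR and 647 to 684 in EPRSTOPE libraries, with no overlap. Gm42047 was at 404, 403 and 412 CPM in mock, 846, 933 and 972 in EPR, and 543, 564 and 522 in EPRSTOPE libraries. It rose by 1.17 in EPR (SE 0.06, adjusted p = 1.2e-08) and stood 0.76 higher in EPR than in EPRSTOPE (adjusted p = 1.6e-06), while 0.42 in EPRSTOPE against mock was under the limit of 0.5 on the deposited counts and was called at 0.70 on the scaled counts. AC153370.2 had 0.94 against mock and 0.80 directly, and AC153548.2 had 0.17, -0.57 and 0.74 in the 3 comparisons, of which the last 2 were called on the deposited counts but not on the scaled counts. The call of AC153548.2 in EPRSTOPE against mock was also lost without library 203, 204, 209 or 210 (-0.59 to -0.46, adjusted p = 0.011 to 0.024).

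A family of 7 members on chromosomes 7, 12 and 13 that share sequence with each other was lower. AC121504.1, AC121569.2, AC127281.1, AC155634.1, AC210924.1, CT009754.7 and Gm38947 summed to 377 to 398 CPM in mock, 237 to 250 in EPR and 210 to 272 in EPRSTOPE libraries. Mock lay above all other libraries. By single members 3 were called in EPR and 5 in EPRSTOPE, with fold changes of -0.89 to -0.31 and -1.12 to -0.35 on the log2 scale over the 7. That of AC155634.1 in EPR ended without any of 6 libraries (-0.72 to -0.55), and those of AC210924.1 (-1.14 to -0.91) and AC127281.1 (-0.43) in EPRSTOPE ended without any of 5 and without library 211. None of these calls was made on the scaled counts, on which AC121569.2 had -0.44 and -0.66. CT009754.7 was also called higher in EPR than in EPRSTOPE, but not on the scaled counts (0.51, adjusted p = 0.093) or without library 211 (0.44). The Gm26909 family of 5 fell from 129 to 137 CPM in mock to 58.7 to 84.3 in EPR and 69.5 to 81.9 in EPRSTOPE libraries, led by Gm26909 on chromosome 8 (-1.39, adjusted p = 2.7e-05, and -1.09, adjusted p = 0.0002). Its calls of Gm4419 in both, AC241534.3 in EPR and BC051077 in EPRSTOPE were not made on the scaled counts. Gm21781 was not called and had 0.69 and 0.28 on that scale. AC241534.3 also lost its calls without any of 4 libraries in EPR and of 3 in EPRSTOPE, and Gm4419 without any of 4 in EPRSTOPE. 2410018L13Rik and Gm5784, a pair on chromosome 12 of which RefSeq lists Gm5784 as protein-coding, fell together (-2.26 and -1.61 for 2410018L13Rik, -1.0 and -0.72 for Gm5784), the calls of Gm5784 not being made on the scaled counts. Their sum was at 36.6 to 38.7 CPM in mock, 13.5 to 15.6 in EPR and 14.7 to 21.7 in EPRSTOPE libraries. The 586 tested genes of chromosome 12 had medians of -0.27 in EPR and -0.08 in EPRSTOPE against mock. The part of this shift in the values of the pair was not tested. As a sum, the Gm45090 family of 7 did not separate, with 158 to 165, 149 to 169 and 117 to 166 CPM. Gm45090 itself was called lower in EPR and in EPRSTOPE, also in every fit that left out 1 library. On the scaled counts it was called in EPR (-0.80, adjusted p = 0.0069) but not in EPRSTOPE (-0.63, adjusted p = 0.022). It shares 100% of its words with AC115034.1, so its level cannot be taken as its own.

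**Figure D5:**
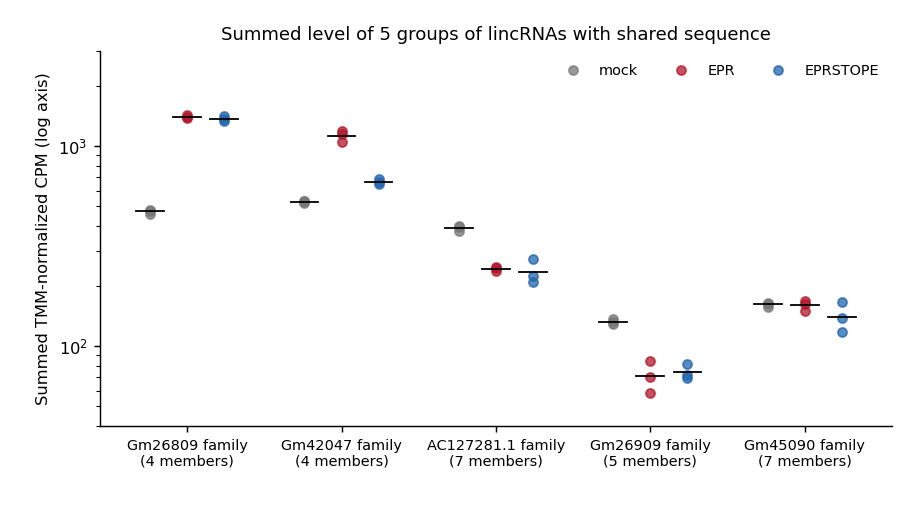
Summed TMM-normalized CPM (log axis) of 5 groups of lincRNAs that share sequence, in the mock, EPR and EPRSTOPE libraries (points, 3 each; bars are means). The Gm26809 family is higher in both populations with an EPR construct, the Gm42047 family is highest in EPR, the AC127281.1 and Gm26909 families are lower in both, and the Gm45090 family overlaps.

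Several members shared most of their words with a single coding gene or other transcript, and their levels cannot be taken as their own. Gm26825, among the 5 most abundant members, shares 94.6% of its words with other genes, most of them with Gm15459. It was at 1209, 1329 and 1214 CPM in mock, 1316, 1182 and 1150 in EPR, and 1520, 1658 and 1586 in EPRSTOPE libraries (-0.04 and 0.34), and it was not called on the deposited counts, whereas the scaled counts called it in EPRSTOPE (0.55). Gm26718 shares 98.15% of its words with Pgam5 on the opposite strand. It was at 21.8, 8.97 and 11.1 CPM in mock, at 0 in every EPR library, and at 0, 0 and 15.2 in EPRSTOPE libraries. With 3 counts over the EPR libraries as the floor, mock was at least 135-fold higher, while Pgam5 was not called in EPR (0.29). The call was not made on the scaled counts, nor without any of the 6 mock and EPR libraries (adjusted p = 0.013 to 0.023). Such a switch between libraries of 1 population was also seen in Gm28901 (32.7, 0 and 73.6 CPM in EPRSTOPE) and in Gm7292 (0.311, 8.76 and 7.33 in mock), which share sequence with Hnrnpf and with 2900097C17Rik. Gm28901 and Gm7292 were named after their values were seen.

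Of the ribosomal RNA-like models, Gm26917 on chromosome 17 carried the largest counts of all members. It ranged from 20100 to 21990 CPM in mock, from 10920 to 16820 in EPR, and from 12230 to 14560 in EPRSTOPE libraries. It was lower in both (-0.62 and -0.63, adjusted p = 0.0011 each), with mock above the rest, but it was called neither on the scaled counts (-0.41 and -0.32) nor in EPR without library 208 (-0.48). Gm42418 beside it, which RefSeq lists as the pseudogene Rn18s-rs5, was at 686 to 929 CPM in mock, 888 to 992 in EPR and 737 to 926 in EPRSTOPE libraries and was not called.

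Per length, the most abundant member after these and Gm26825 was Gm26809, with a mean of 124, 385 and 384 TPM in mock, EPR and EPRSTOPE. The median member stood at 6.61 TPM over all libraries.

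Of the X-inactivation region, Xist was at 690, 618 and 738 CPM in mock, 516, 474 and 552 in EPR, and 568, 643 and 632 in EPRSTOPE libraries. EPR lay below mock without overlap, but the log2 fold change of -0.41 (adjusted p = 0.00095) did not pass the limit of 0.5, and EPRSTOPE overlapped mock (-0.15). On the scaled counts it was called lower in both (-0.81 and -0.68). Ftx, a lincRNA upstream of Xist that hosts Mir421 and Mir374b, was at 11.2 to 12.1, 9.34 to 12.2 and 8.65 to 10.8 CPM, and it was not called (-0.09 and -0.28).

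For the hosts 6720427I07Rik, Mir17hg and Mir155hg, some of the mature microRNAs that lie in them are printed. Those in Ftx, 2900076A07Rik and Snhg20 are not printed. Only the level of the host is known here. The mature forms themselves were not measured, and the level of a host is no measure of them. The sequences are from RefSeq (GRCm38.p6), with the seed, bases 2 to 8, in capitals.
mmu-let-7a-5p, chr13:48538239-48538260, minus strand: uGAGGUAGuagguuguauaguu
mmu-let-7d-5p, chr13:48536078-48536099, minus strand: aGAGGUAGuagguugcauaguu
mmu-let-7f-5p, chr13:48537889-48537910, minus strand: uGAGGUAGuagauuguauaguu
mmu-miR-17-5p, chr14:115043684-115043706, plus strand: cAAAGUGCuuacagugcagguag
mmu-miR-20a-5p, chr14:115044183-115044205, plus strand: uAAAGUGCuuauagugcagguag
mmu-miR-18a-5p, chr14:115043867-115043889, plus strand: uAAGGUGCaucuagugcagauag
mmu-miR-19a-3p, chr14:115044048-115044070, plus strand: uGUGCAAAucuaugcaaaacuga
mmu-miR-19b-3p, chr14:115044358-115044380, plus strand: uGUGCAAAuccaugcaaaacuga
mmu-miR-92a-3p, chr14:115044476-115044496, plus strand: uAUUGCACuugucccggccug
mmu-miR-155-5p, chr16:84714143-84714165, plus strand: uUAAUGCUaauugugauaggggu
The let-7 microRNAs, which restrain growth-promoting genes, share the seed GAGGUAG and come from 6720427I07Rik. MiR-17-5p and miR-20a-5p share AAAGUGC, and miR-19a-3p and miR-19b-3p share GUGCAAA. They lie in Mir17hg, the host of the growth-promoting miR-17-92 cluster. MiR-155-5p, known from activated lymphocytes and from epithelial cells treated with TGF-β, lies in Mir155hg.

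Mir17hg was at 19.9, 23.3 and 19.1 CPM in mock, 25.5, 28.5 and 30.1 in EPR, and 32.9, 34.0 and 36.0 in EPRSTOPE libraries. The populations did not overlap, in the order EPRSTOPE, EPR, mock. The log2 fold change was 0.43 in EPR (adjusted p = 0.0045, under the limit of 0.5) and 0.72 in EPRSTOPE (SE 0.10, adjusted p = 0.00011). It lies on chromosome 14, whose tested genes had medians of 0.49 and 0.59, close to these values. 6720427I07Rik was at 15.1, 10.1 and 11.8 CPM in mock, 19.1, 17.7 and 23.6 in EPR, and 23.6, 16.2 and 17.1 in EPRSTOPE libraries. It was higher in EPR (0.72, adjusted p = 0.0056) and at 0.62 without a call in EPRSTOPE (adjusted p = 0.015). The former call was lost without library 204, 205, 206 or 208 (0.60 to 0.77). Mir155hg was at 5.13 to 6.02, 3.84 to 5.30 and 3.39 to 3.57 CPM, with -0.30 and -0.68, neither of them called (adjusted p = 0.27 and 0.022).

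The hosts of small nucleolar RNAs, which guide modification of ribosomal RNA, were not called. Snhg6 was at 31.4 to 32.4 CPM in mock, 32.7 to 34.8 in EPR and 29.5 to 37.1 in EPRSTOPE libraries (0.07 and 0.04). Snhg20 (0.05 and -0.04), Epb41l4aos (0.25 and 0.17) and 2700038G22Rik, host of Snord93 (0.23 and 0.02), were alike in this. The same held for 2900076A07Rik, which hosts Mir1839 (0.59 and 0.08), and for 9430037G07Rik (0.76 and -0.34). At 3 libraries each, the standard errors of these fold changes were 0.09 to 0.35.

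Among other studied lincRNAs, Cyrano (1700020I14Rik) was at 70.5, 65.4 and 64.2 CPM in mock, 73.4, 67.9 and 83.5 in EPR, and 94.4, 95.5 and 93.2 in EPRSTOPE libraries. EPRSTOPE lay above both others. Its log2 fold change of 0.50 (SE 0.08, adjusted p = 0.00017) in EPRSTOPE stood at the limit and was not called on the scaled counts (0.19) or without library 204, 205 or 210 (0.47 to 0.49). Norad, carried in the files as 2900097C17Rik, was at 223, 223 and 203 CPM in mock, 305, 294 and 332 in EPR, and 335, 279 and 283 in EPRSTOPE libraries. Mock lay below all other libraries. The log2 fold change was 0.52 in EPR (adjusted p = 0.00016), which fell below the limit without library 205 or 208 (0.47 to 0.48), and 0.47 in EPRSTOPE, and both were called on the scaled counts (0.77 and 0.64). Norad shares 43.9% of its words with Gm7292. Their sum was at 211 to 231 CPM in mock, 294.5 to 332 in EPR and 279 to 335 in EPRSTOPE libraries. How far the call in EPR rests on the split of shared reads was not tested. Lockd, transcribed 3579 bp downstream of the cell cycle inhibitor gene Cdkn1b, was at 7.30, 10.1 and 7.49 CPM in mock, 4.19, 4.29 and 6.35 in EPR, and 3.73, 2.78 and 2.99 in EPRSTOPE libraries. It fell in EPRSTOPE (-1.41, SE 0.25, adjusted p = 0.00056), as did Cdkn1b (-0.69), and was at -0.74 without a call in EPR (adjusted p = 0.02). Gm14005, known as Morrbid, a regulator of Bcl2l11 in short-lived myeloid cells, was at 7.81 to 10.5, 5.89 to 7.68 and 5.42 to 9.08 CPM and was not called (-0.50 and -0.33).

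RefSeq lists a protein for 6 members. Besides Gm5784, D930016D06Rik was lower in EPRSTOPE (-0.98, adjusted p = 0.0081), a call not made on the scaled counts or when any of 6 libraries was left out (-1.10 to -0.73). Gm32856 was higher in EPR (0.54, adjusted p = 0.0017), which was not called on the scaled counts (0.09) or without library 203 (0.44). The other 3, 1810058I24Rik, Tmem250-ps and Gm37494, were not called in any comparison.

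Positions came from Gencode M21 for 138 members, and 106 members could be paired with a nearest coding gene that was also tested. In EPR against mock, member and neighbour were both called in the same direction in 11 pairs and in opposite directions in 3, while 21 members and 18 neighbours were called alone and 53 pairs had no call. In EPRSTOPE against mock the numbers were 9, 6, 23, 18 and 50. Of all genes tested, 28.1% and 28.0% were called in these 2 comparisons. Matching numbers for other pairs of neighbouring genes are not given here, so the counts do not show that members and neighbours moved together. Across pairs in EPR against mock, Pearson's r was 0.17 and Spearman's rho 0.23 (n = 106 pairs), and 0.20 and 0.32 for the 60 within 10 kb. These describe genes within the same libraries, which are not independent replicates. Beside the pairs named above, Gm6410 and Shcbp1, a gene of dividing cells, fell together (-1.08 and -1.68 in EPR), whereas 4632415L05Rik was lower in EPRSTOPE (-0.57, a call lost without library 211 and on the scaled counts) and the neighbouring ceruloplasmin gene Cp, 58070 bp away, was higher (2.57).

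Gene lists are given by their counts, beside 15.2% higher and 12.9% lower of all genes tested in EPR and 15.6% and 12.4% in EPRSTOPE against mock. Of 8 tested long noncoding RNAs that had been left out by name, 3 were called higher in EPR (Malat1, Neat1 and Pvt1) and none lower, and 2 were higher and 1 lower in EPRSTOPE. Of genes that process or degrade noncoding RNA, 0 of 9 microRNA-processing genes were called in any comparison. In nuclear RNA decay, 4 of 19 were lower in EPR, and 1 was higher and 4 were lower in EPRSTOPE, with Exosc8, a subunit of the RNA exosome, at -1.05 and -0.88. Of the genes of nonsense-mediated decay 1 of 10 was lower in each (Smg5, -0.52 and -0.68). The 6 epithelial markers tested were all higher in EPR and 4 were higher in EPRSTOPE, and of 6 mesenchymal markers 5 and 2 were lower. Leukocyte markers summed to 2.005 to 4.55 CPM and endothelial markers to 11.03 to 16.7 CPM over all 9 libraries. The part of the epithelial and mesenchymal shift in the lincRNA values was not tested.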

How the data were processed

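Total RNA of NMuMG cells was sequenced by the authors as paired 75-base reads from stranded total RNA libraries, 3 libraries each of mock, EPR and EPRSTOPE cells. Per the labels, reads were demultiplexed with bcl2fastq 2.0 and quantified with Kallisto 0.43.1 against Gencode transcripts of GRCm38.p5. The strand setting of that run is not given in the sources used here. The deposited files hold, per transcript, an estimated count and a TPM value, the latter scaled by the authors' run to effective transcript length and to 1000000 per library.

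Estimated counts were summed per gene symbol and rounded. The 15370 genes reaching 1 CPM in 3 libraries or more were fitted in 1 model of 9 libraries with edgeR 4.0.16 (R 4.3.3, TMM normalization, quasi-likelihood test, two-sided, Benjamini-Hochberg adjustment over all genes tested). Calls required an adjusted p below 0.01 together with a log2 fold change exceeding 0.5 in size. The study's methods compared transcripts, which was tried as an alternative. The fitting code was tested on simulated counts. Libraries of 5972457 to 11876435 counts set a floor of 3 counts at 0.253 to 0.502 CPM, and floors and intervals cover counting error only.

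The members and the gene lists were chosen with earlier results of these data known. The lists were long noncoding RNAs left out by name, microRNA processing, nuclear RNA decay, nonsense-mediated decay, and epithelial, mesenchymal, leukocyte and endothelial markers. Members named were the 5 of highest level, the 10 of largest change in each direction per comparison among calls without overlap of libraries, members with a known role or small RNA host, members with a RefSeq protein, and those next to the threshold. Other members were named after their values were seen, and the word-sharing classes, the sequence families and the look at fragment length were also set after values were seen. Positions and transcript sequences came from Gencode M21 (GRCm38), promoters and microRNAs from RefSeq (GRCm38.p6). Tables were handled with Python 3.11.15, pandas 2.3.3, numpy 2.4.6 and scipy 1.17.1, and figures were drawn with matplotlib 3.10.9.

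Alternatives were RLE size factors, DESeq2 1.42.0, limma 3.58.1 with voom, 2 other filters, counts scaled from TPM, transcripts as features, fits of 6 libraries, leaving out each library, leaving out the ribosomal RNA-like models, another call rule, and other membership rules. All sample columns of the files were used.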

Additional observations from a re-analysis of the deposited data

How the results depend on the processing

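The numbers of lincRNAs called were within 1.5 times those reported under RLE size factors, DESeq2, limma with voom, at least 10 counts in every library, fits of the 6 libraries compared, removal of the ribosomal RNA-like models and membership at a mean of 10 CPM. Without a filter, 10 members in place of 4 were lower in EPR than in EPRSTOPE. With counts scaled from TPM, 12 members were lower in EPR and 14 in EPRSTOPE than in mock, and the direct comparison called 5 higher and 2 lower. With transcripts as features, 13 were higher and 6 lower in EPR, 10 were lower in EPRSTOPE, and the direct comparison called 3 higher and 1 lower. At an adjusted p under 0.05 with no fold limit, 31 were higher in EPR and 29 in EPRSTOPE than in mock, and 24 were higher and 17 lower between EPR and EPRSTOPE. The shares of all features called without a filter, with transcripts as features or under this rule are not given here. These numbers therefore describe the members only. Among members at 5 CPM in all populations, fewer features being counted, 13 were higher and 15 lower in EPR, 8 higher and 21 lower in EPRSTOPE, and 7 higher and 1 lower directly. The cause of the other shifts was not tested. In EPR against mock, lower calls outnumbered higher ones on the deposited counts (27 against 20), whereas higher calls outnumbered lower ones on the scaled counts (18 against 12) and with transcripts. Uncalled values that changed sign on the scaled counts included those of Gm26825 (-0.04 to 0.15) and Ftx (-0.09 to 0.14) in EPR, and of Snhg20 in EPR (0.05 to -0.26).

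Leaving out 1 library at a time gave 18 to 21 higher and 21 to 28 lower in EPR, 12 to 16 higher and 27 to 35 lower in EPRSTOPE, and 11 to 16 higher and 3 to 5 lower directly. Of 47, 51 and 19 calls, 33, 34 and 12 were made in all 9 of these fits. The matching shares over all genes tested are not given here, so these numbers also describe the members only. No paired analysis was possible because the library numbers of the labels are not shared between populations. Depth limits the members near 5 CPM most, where a library of 5972457 counts holds few reads per gene.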
